A study of Homo sapiens with 18 samples.

Results

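*ANKRD1*, *AXL*, *F3*, *CRIM1*, *FJX1*, *NT5E*, *NUAK2*, *MYOF*, *ASAP1* and *DOCK5* are 10 genes from a signature of YAP activity, and its CCN family members and remaining genes are not among them. They were taken by gene symbol from the authors' deposited table of LN411 against fibronectin (FN) comparisons, by a rule that names the genes and uses no measured value, although the choice was made with earlier results of these data known. All 10 were listed at 3, 6 and 24 h, among 18672 genes listed at all 3 times and 21944 listed at 1 time or more. At 24 h after reseeding on LN411, *ANKRD1*, *AXL*, *CRIM1*, *FJX1*, *NUAK2* and *MYOF* were lower than on FN, *NT5E* was higher, and *F3*, *ASAP1* and *DOCK5* did not pass the test.

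The samples were bulk RNA of human embryonic stem cell-derived pancreatic progenitors at day 19 of differentiation. The labels give HUES4 as the cell line, while their growth protocol names SA121-derived NGN3-GFP cells, a line with a reporter for *NEUROG3*, which is also the line the study names for this experiment. Cells of all groups were detached with accutase and placed in wells coated with FN, the control, or with LN411, a weakly adhesive laminin isoform, and were collected after 3, 6 or 24 h. There were 3 samples for each of the 6 combinations and 18 in all. The deposited table holds the authors' DESeq2 estimates for each gene and no value for a single sample, which leaves library depth unknown here, and the spread between samples enters only through the standard error (SE). In bulk RNA, fewer cells of a kind and less RNA per cell cannot be told apart.

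YAP and its relative TAZ (*WWTR1*) are transcriptional co-activators that bind DNA through the TEAD factors. When cells spread on adhesive matrix and actin filaments are under tension, they stay in the nucleus, and when adhesion and tension are low, the LATS kinases and other restraints keep them in the cytoplasm. AP-1 factors often bind beside TEAD at YAP targets, and in the developing pancreas low YAP activity goes with the passage from progenitor to endocrine cell.

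The promoters below are those of a gene with a large fall on LN411, a gene already lower at 6 h, a gene that did not pass the test and the gene that rose. They are the 250 bases before the start site in RefSeq on GRCh38.p14, 5′ to 3′ on the strand of the gene, with matches to a TEAD core (GGAATG, on either strand) and to an AP-1 site (TGANTCA, on either strand) in capitals. *ANKRD1* (chr10:90921088-90921337, minus strand) holds the TEAD core at −220 and −128 and the AP-1 site at −195, counted from the start site. *NUAK2* (chr1:205321746-205321995, minus strand) holds the TEAD core at −197, on the opposite strand, and at −18. *F3* (chr1:94541760-94542009, minus strand) holds the AP-1 site at −223 and −210 and no TEAD core. *NT5E* (chr6:85449833-85450082, plus strand) holds neither motif in this window, which precedes a start site inside the annotated gene.
ANKRD1: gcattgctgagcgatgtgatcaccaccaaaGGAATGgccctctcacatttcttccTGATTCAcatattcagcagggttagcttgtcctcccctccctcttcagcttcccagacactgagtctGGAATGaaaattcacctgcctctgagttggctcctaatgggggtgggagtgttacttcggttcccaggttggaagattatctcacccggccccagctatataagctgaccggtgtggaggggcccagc
NUAK2: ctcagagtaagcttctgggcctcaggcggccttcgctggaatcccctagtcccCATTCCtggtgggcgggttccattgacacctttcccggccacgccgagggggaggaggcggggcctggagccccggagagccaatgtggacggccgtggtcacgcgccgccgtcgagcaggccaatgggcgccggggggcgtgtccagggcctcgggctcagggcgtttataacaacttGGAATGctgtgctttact
F3: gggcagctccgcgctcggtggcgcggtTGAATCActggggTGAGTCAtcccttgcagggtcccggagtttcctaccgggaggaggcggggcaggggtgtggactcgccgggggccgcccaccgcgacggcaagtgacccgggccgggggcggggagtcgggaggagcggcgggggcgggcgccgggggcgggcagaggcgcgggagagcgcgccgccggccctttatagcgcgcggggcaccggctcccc
NT5E: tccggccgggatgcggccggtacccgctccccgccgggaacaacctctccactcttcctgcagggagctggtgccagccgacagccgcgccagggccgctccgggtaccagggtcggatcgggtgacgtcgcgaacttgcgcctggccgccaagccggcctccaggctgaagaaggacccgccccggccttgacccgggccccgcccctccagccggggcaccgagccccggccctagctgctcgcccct

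RefSeq promoters were found for 7 of the 10 genes, with an additional start site for *AXL*, and the search covered 300 bases, from 250 before to 50 after each start. The TEAD core was present in 3 of these 8 windows, those of *ANKRD1* and *NUAK2* and 1 of *AXL*, and in 14.0% of all 35116 windows. In *AXL* the match lay before a start site inside the annotated gene, and the window at the annotated start held none. The AP-1 site was present in 2 of the 8 windows, against 7.71% of all windows. The CArG box bound by SRF, an actin-responsive factor, was in 0 of the 8, against 1.29%. *MYOF*, lower at both 6 and 24 h, and *FJX1*, lower at 24 h, are not printed above and held none of these motifs in the window searched. A match describes the letters of the window only, and binding was not measured.

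The number of genes called grew with time. At 3 h, 0 of the 10 genes were called lower and 0 higher at an adjusted p-value under 0.05, where 0.200% of all tested genes were lower and 0.183% higher, and 1 gene, *DOCK5*, had an unadjusted p-value under 0.05 in the authors' deposited table. At 6 h, *NUAK2*, *MYOF* and *DOCK5* were lower, which is 3 of 10 against 3.33% of all tested genes, and 0 were higher, against 4.90%. At 24 h, 6 of 10 were lower, against 12.8% of all tested genes, and 1 was higher, against 16.7%. The median log2 fold change of LN411 over FN of the 10 genes moved from −0.058 at 3 h to −0.18 at 6 h and −1.23 at 24 h, while that of all tested genes was 0.0093, 0.022 and 0.012. The members spread apart, from a range of −0.22 to 0.068 at 3 h to one of −2.94 to 2.08 at 24 h.

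**Figure D1:**
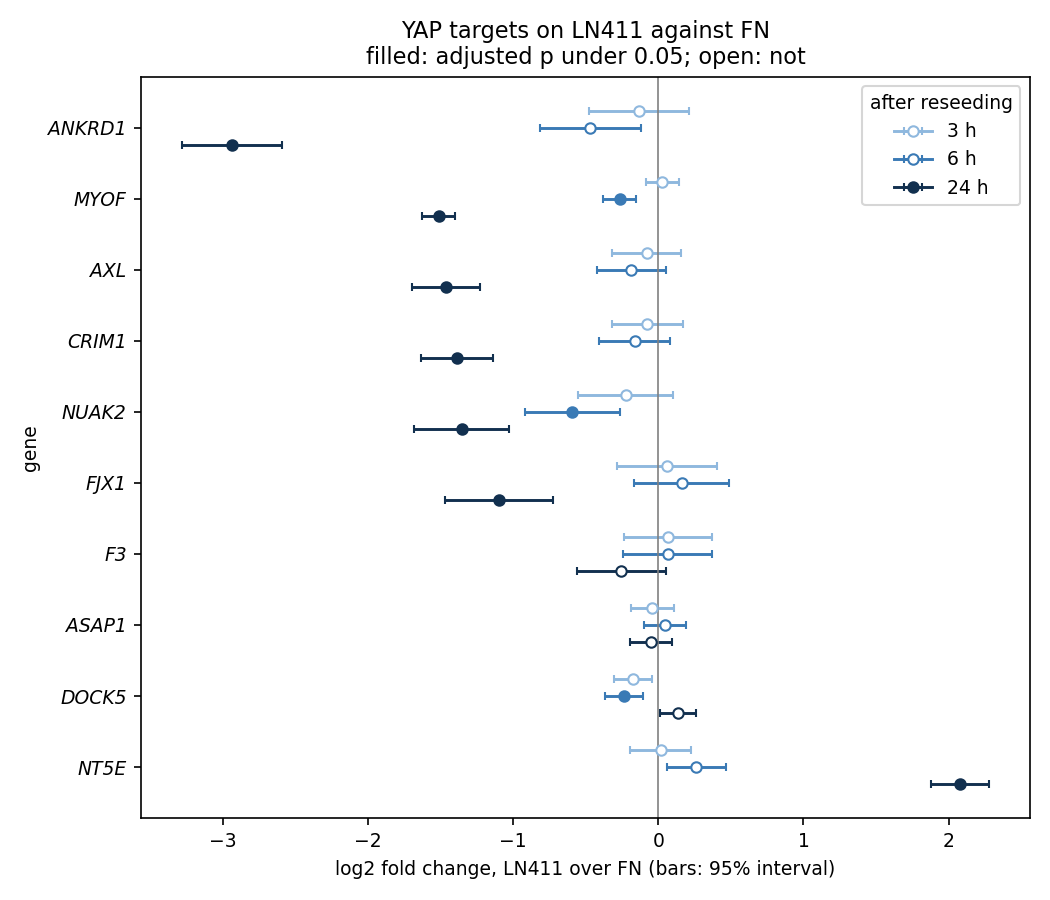
Log2 fold change of LN411 over FN for each of the 10 genes at 3, 6 and 24 h, with bars for the 95% confidence interval and filled points for an adjusted p-value under 0.05. At 3 h all points lie between −0.22 and 0.068, and at 24 h 6 genes lie at −1.10 or below while *NT5E* lies at 2.08.

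*ANKRD1* (ENSG00000148677, chromosome 10 of GRCh38, 90912096 to 90921087) encodes an ankyrin repeat protein that acts in the nucleus as a transcriptional cofactor and in muscle binds titin, and it is a widely used readout of YAP. Its log2 fold change was −0.13 (SE 0.18) at 3 h, −0.47 (SE 0.18, adjusted p = 0.0778) at 6 h and −2.94 (SE 0.18, adjusted p = 1.26e-59) at 24 h. At 24 h the level was 7.67-fold lower on LN411, with a 95% confidence interval of the log2 value from −3.29 to −2.59, and 0.0562% of tested genes had a lower log2 fold change. At 6 h the estimate was 27.7% lower and the interval, −0.81 to −0.12, lay below 0, but the value did not pass the adjusted test. Per kilobase of exon, *ANKRD1* was also the most abundant of the 10 genes, at 10636 mean normalized counts per kilobase, above 99.4% of genes with a known exon length.

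*AXL*, *CRIM1* and *FJX1* were lower at 24 h and did not pass the test at 3 or 6 h. *AXL* (ENSG00000167601, chromosome 19, 41219223 to 41261766) encodes a receptor tyrosine kinase for GAS6. Its log2 fold change was −0.080 at 3 h, −0.19 (adjusted p = 0.410) at 6 h and −1.46 (SE 0.12, adjusted p = 2.35e-33) at 24 h. The last value corresponds to a level 63.7% lower on LN411. *CRIM1* (ENSG00000150938, chromosome 2, 36355778 to 36551135) encodes a transmembrane protein that binds bone morphogenetic proteins. Its values were −0.075 at 3 h, −0.16 (adjusted p = 0.501) at 6 h and −1.39 (SE 0.13, adjusted p = 2.00e-26) at 24 h, 61.8% lower. *FJX1* (ENSG00000179431, chromosome 11, 35618460 to 35620865) is the human relative of fly four-jointed, a Golgi kinase that acts on Fat and Dachsous cadherins. Its estimates were above 0 early, at 0.059 and 0.16 (adjusted p = 0.651), and the value at 24 h was −1.10 (SE 0.19, adjusted p = 1.12e-07), 53.2% lower.

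*F3* (ENSG00000117525, chromosome 1, 94529173 to 94541759) encodes tissue factor, the membrane receptor that starts blood clotting, and it did not pass the test at any time. Its log2 fold change was 0.068 at 3 h, 0.065 (adjusted p = 0.868) at 6 h and −0.25 (SE 0.16, adjusted p = 0.231) at 24 h. Its 95% confidence interval at the last time was −0.56 to 0.052, and its lower end stood above the estimates of the 6 genes that were lower. *F3* was a well expressed member, with 1767 mean normalized counts per kilobase, behind *ANKRD1* among the 10.

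*NT5E* (ENSG00000135318, chromosome 6, 85449584 to 85495791) encodes CD73, the surface enzyme that makes adenosine from AMP, and it went against the group. Its log2 fold change was 0.017 at 3 h, 0.26 (SE 0.10, adjusted p = 0.102) at 6 h and 2.08 (SE 0.10, adjusted p = 2.50e-88) at 24 h. The 24 h value is a level 4.23-fold higher on LN411, with a 95% confidence interval of the log2 value from 1.88 to 2.28, and 99.8% of tested genes had a lower log2 fold change. At 6 h the interval, 0.057 to 0.47, lay above 0, although the adjusted test was not passed.

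*NUAK2* and *MYOF* were lower at both 6 and 24 h. *NUAK2* (ENSG00000163545, chromosome 1, 205302063 to 205321745) encodes an AMPK-related kinase that promotes actomyosin contraction. It had the lowest estimate of the 10 at 6 h, with log2 fold changes of −0.22 at 3 h, −0.59 (SE 0.17, adjusted p = 0.00871) at 6 h and −1.36 (SE 0.17, adjusted p = 9.50e-15) at 24 h. Its level was 33.7% lower at 6 h and 60.9% lower at 24 h. *MYOF* (ENSG00000138119, chromosome 10, 93306429 to 93482334) encodes myoferlin, a membrane protein of fusion and repair. Its values were 0.027 at 3 h, −0.27 (SE 0.059, adjusted p = 0.000282) at 6 h and −1.52 (SE 0.057, adjusted p = 7.99e-153) at 24 h. *MYOF* had the smallest SE of the 10 genes, and its level, 65.0% lower at 24 h, had an interval of the log2 value from −1.63 to −1.40. Tested against a t distribution with 12 degrees of freedom, *NUAK2* did not pass at 6 h (adjusted p = 0.0922) and *MYOF* did (adjusted p = 0.0338).

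*DOCK5* (ENSG00000147459, chromosome 8, 25184689 to 25418082) encodes an exchange factor that activates the GTPase RAC, and it passed the test at 6 h and not at 3 or 24 h. Its log2 fold changes were −0.17 (SE 0.068, adjusted p = 0.570) at 3 h, −0.24 (SE 0.067, adjusted p = 0.00879) at 6 h and 0.14 (SE 0.064, adjusted p = 0.101) at 24 h. Its level was thus 15.2% lower at 6 h, while at 24 h the interval ran from 0.0092 to 0.26, above 0, without passing the adjusted test. The 6 h call was lost once trends with GC content and transcript length were removed (−0.15, adjusted p = 0.183) and with the t distribution (adjusted p = 0.0922), and at 24 h the removal of these trends gave 0.17 and an adjusted p-value of 0.0258. *ASAP1* (ENSG00000153317, chromosome 8, 130052104 to 130443674) encodes a GTPase-activating protein for ARF found at focal adhesions. Its values lay near 0, at −0.040, 0.048 (adjusted p = 0.780) and −0.050 (adjusted p = 0.678), with an interval at 24 h from −0.19 to 0.094.

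**Figure D2:**
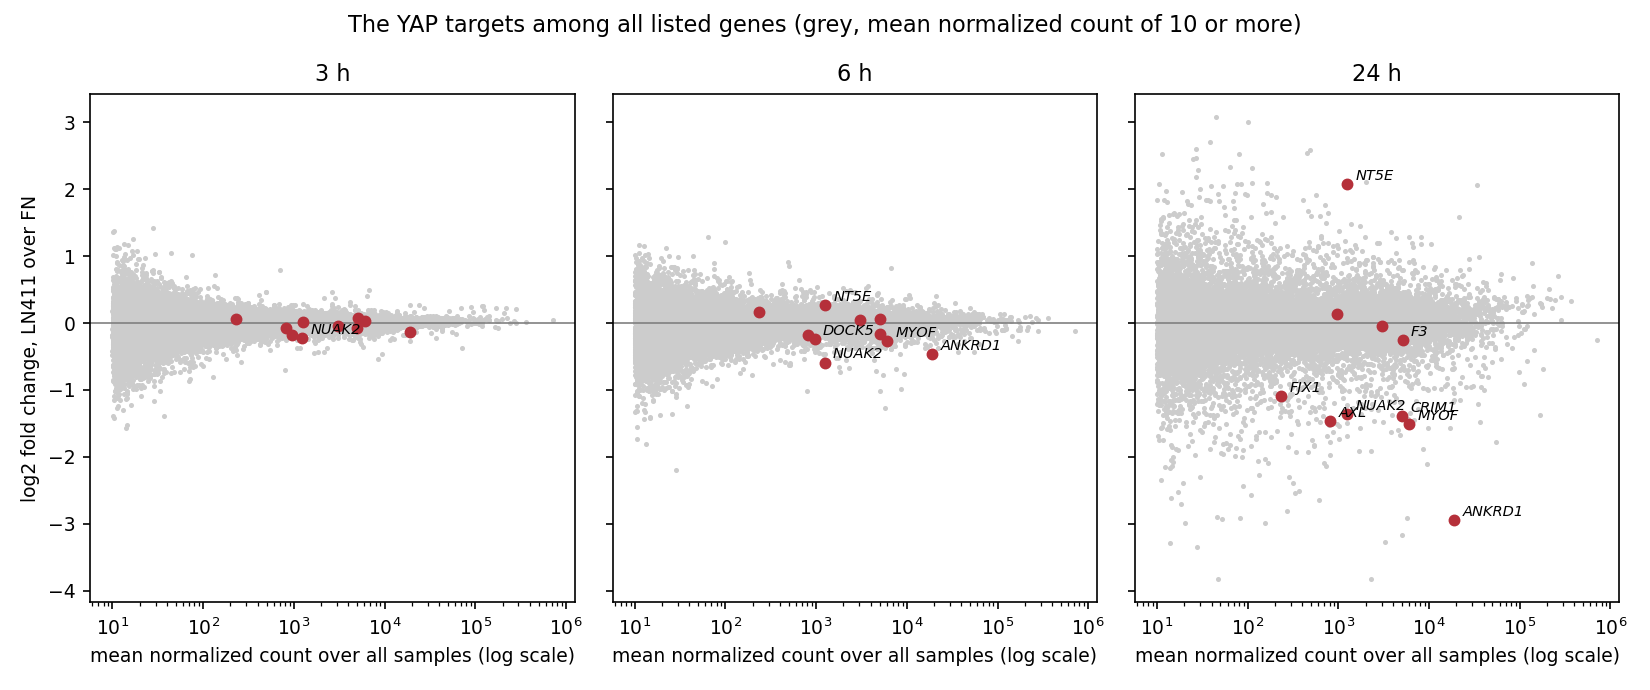
Log2 fold change of LN411 over FN against the mean normalized count over all samples, on a log scale, for the 10 genes (red) and all genes with a mean of 10 or more (grey), at 3, 6 and 24 h. *ANKRD1*, with a mean of 19038, lies at the lower edge of the cloud at 24 h with a log2 fold change of −2.94, and *NT5E*, with a mean of 1258, at its upper edge.

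The change of the effect between times was tested next, and it set *DOCK5* apart from *F3* and *ASAP1*. The effect of LN411 at one time was subtracted from that at the later time, and p-values were adjusted over every gene present at both. From 3 to 6 h, the effect fell for 0 and rose for 0 of the 10 genes, where it fell for 0.146% and rose for 0.111% of all genes. Only *MYOF* had an unadjusted p-value under 0.05, with a difference of −0.29 (adjusted p = 0.113). From 6 to 24 h, the effect fell for 6 genes, against 6.51% of all genes, and rose for 2, against 6.24%. *ANKRD1* fell by 2.47 on the log2 scale (adjusted p = 8.48e-21). *AXL*, *CRIM1*, *FJX1* and *MYOF* had close point estimates, with differences of −1.28, −1.23, −1.26 and −1.25 and adjusted p-values from 8.79e-50 to 1.82e-05. Their 95% confidence intervals were wider than this closeness, from −1.75 to −0.76 in *FJX1* and −1.61 to −0.94 in *AXL*. *NUAK2*, already lower at 6 h, had a difference of −0.76 (95% confidence interval −1.22 to −0.30, adjusted p = 0.0129), and against the t distribution it did not pass (adjusted p = 0.0774). *NT5E* rose by 1.82 (adjusted p = 1.24e-32).

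*DOCK5* turned from an estimate below 0 to one above it. Its difference between 6 and 24 h was 0.37 (95% confidence interval 0.19 to 0.56, adjusted p = 0.00101), so that it and *NT5E* were the 2 members whose effect rose. For *F3* the difference was −0.32 (adjusted p = 0.430) and for *ASAP1* −0.098 (adjusted p = 0.670), neither past the test. From 3 to 24 h the effect fell for 6 genes, *ANKRD1*, *AXL*, *CRIM1*, *FJX1*, *NUAK2* and *MYOF*, against 8.18% of all genes, and rose for *NT5E* and *DOCK5*, against 8.85%. Over this interval the differences reached −2.81 in *ANKRD1* and 2.06 in *NT5E*, while *DOCK5* had 0.31 (adjusted p = 0.00838, and 0.0562 with the t distribution).

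**Figure D3:**
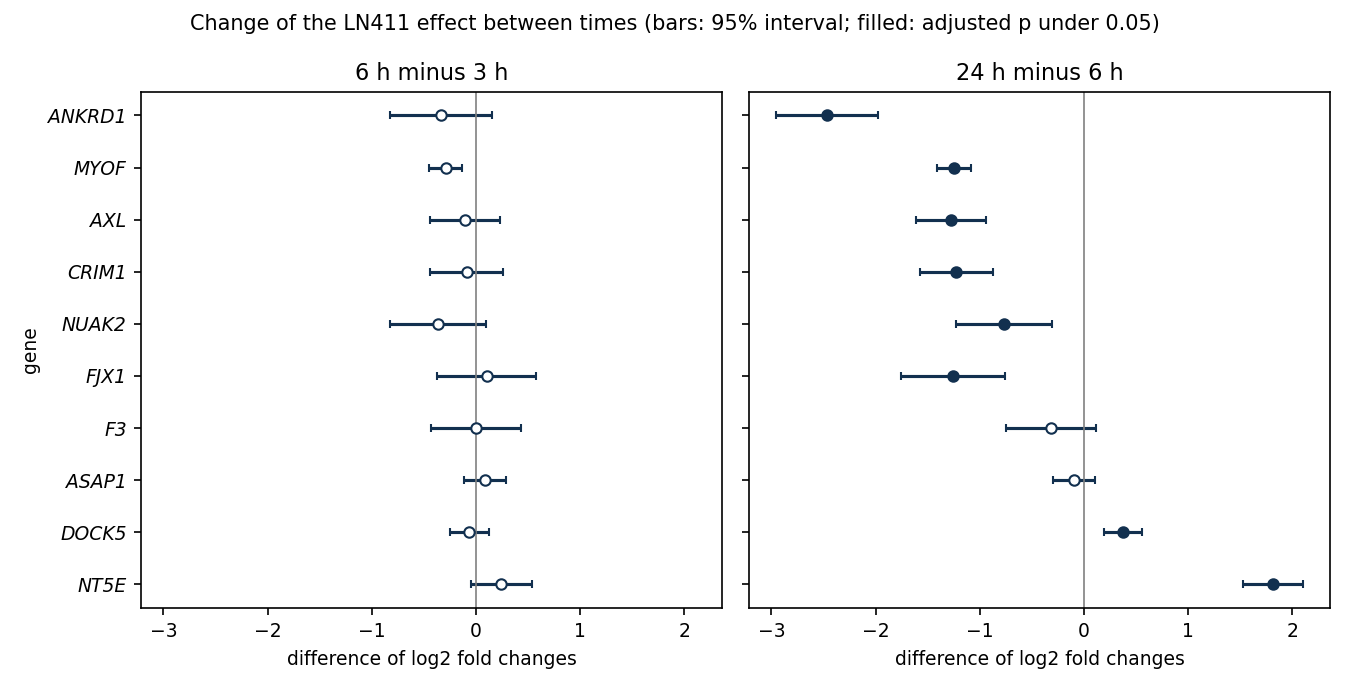
Difference between times of the log2 fold change of LN411 over FN for each gene, with bars for the 95% confidence interval and filled points for an adjusted p-value under 0.05. No point passes from 3 to 6 h, and from 6 to 24 h *ANKRD1* lies at −2.47, 4 genes between −1.28 and −1.23, *NUAK2* at −0.76, *DOCK5* at 0.37 and *NT5E* at 1.82.

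The calls at 6 h followed precision as well as size. *ANKRD1* had the second lowest estimate at this time, −0.47, and did not pass, while *MYOF* passed at −0.27 and *DOCK5* at −0.24. The SE of *ANKRD1* was 3.44 times the median of 0.051 over the 7968 genes whose mean normalized count reached 1000, although its own count was the highest of the 10. *F3* and *NUAK2* had SEs of 3.04 and 3.24 times that median, *CRIM1* of 2.46, *AXL* of 2.39 and *NT5E* of 2.04 times, against 1.14 for *MYOF*. The median is not matched to the level of each gene. *FJX1*, with a mean normalized count of 233, had an SE of 0.17, near that of *NUAK2*, which had a mean of 1244.

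**Figure D4:**
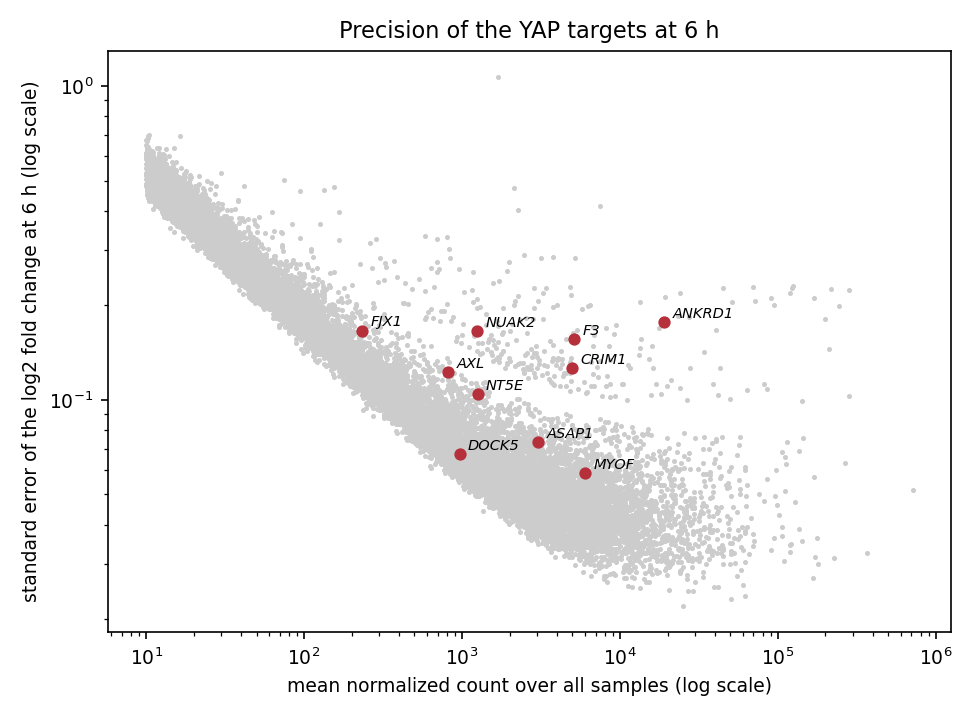
SE of the 6 h log2 fold change against the mean normalized count over all samples, both on log scales, for the 10 genes (red) and all genes with a mean of 10 or more (grey). *ANKRD1*, *F3*, *NUAK2* and *CRIM1* lie above the bulk of genes of their level, at 3.44, 3.04, 3.24 and 2.46 times the median of genes whose mean reached 1000, and *MYOF*, *ASAP1* and *DOCK5* lie within the bulk.

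Per kilobase of exon, the 10 genes covered a wide span of mean normalized counts over all samples. After *ANKRD1* and *F3* came *MYOF* at 710 per kilobase, *CRIM1* at 688, *NUAK2* at 367, *ASAP1* at 366, *NT5E* at 278, *AXL* at 159, *FJX1* at 96.8 and *DOCK5* at 60.4. *DOCK5*, the lowest, was above 45.0% of genes, and its exons, merged over all annotated transcripts, span 15989 bases. Its place in this order depends on that measure of length. No spread over samples can be given for these levels, so that neighbours such as *NUAK2* and *ASAP1* cannot be ranked. The 6 genes that were lower at 24 h stood at both high and low levels in this order. Opposite-strand long noncoding RNAs share 575 exon bases with *ASAP1* (6.9% of its exons), 177 with *CRIM1* (2.4%) and 67 with *AXL* (1.3%), and whether counting used the strand is not given in the sources used here.

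The genes with the pattern most like that of the lowest and the highest member were searched among 13114 genes whose mean normalized count reached 100, by the distance between log2 fold changes at the 3 times. For *ANKRD1* these were *EDN1*, which encodes endothelin 1, with −0.078, −0.30 and −2.81 at 3, 6 and 24 h, then the skeletal muscle actin *ACTA1* with −2.99 and the calponin *CNN1* with −2.64 at 24 h. For *NT5E* they were *KCTD12*, an auxiliary subunit of GABA-B receptors, with 0.016, 0.29 and 2.07, then *TNFSF10*, the ligand TRAIL, with 1.94 and the sulfotransferase *SULT1B1* with 1.87 at 24 h.

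The 12 other genes of the same signature, *CCN1* and *CCN2* included, were set beside the 10. Of these, *FOXF2* was not listed. Called lower were 1 of 11 at 3 h, *LATS2* with −0.25, then 8 of 10 tested at 6 h and 8 of 11 at 24 h, with 0, 0 and 1 called higher. Lower over all tested genes were 0.200%, 3.33% and 12.8%, and higher were 0.183%, 4.90% and 16.7%. The 1 higher gene of 11 at 24 h is thus no more than the share of all genes. The medians of the list were −0.12, −0.34 and −0.62. *CCN1* and *CCN2*, secreted matrix proteins, had the lowest values, −1.02 and −1.27 at 6 h and −3.16 and −2.91 at 24 h, where *ANKRD1* lay between them. The Hippo pathway genes *LATS2* and *AMOTL2*, which restrain YAP and are also its targets, stood at −0.73 and −0.69 at 6 h, below the estimates of all 10 genes at that time. At 24 h *LATS2* stood at −0.62 and *AMOTL2* at −1.28, and *TGFB2*, a secreted growth factor, at −1.47. *IGFBP3*, a binding protein for insulin-like growth factors, was higher at 24 h, at 0.71, as *NT5E* was. The difference between the 10 genes and the other 11 was not tested.

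Of 7 genes for YAP, TAZ, the TEAD factors and the TEAD cofactor *VGLL4*, 0 were called at 3 h, 1 was lower and 2 were higher at 6 h, and 4 were lower and 1 higher at 24 h, with medians of −0.017, −0.070 and −0.49. Of all tested genes, 3.33% were lower and 4.90% higher at 6 h, and 12.8% were lower and 16.7% higher at 24 h. The 1 higher gene of 7 at 24 h is thus no more than the share of all genes. *TEAD1* was lower at 6 h (−0.34) and 24 h (−0.57). At 24 h *TEAD4* stood at −0.95, TAZ (*WWTR1*) at −0.59 and *TEAD3* at −0.49, while *YAP1* was higher at 0.40. Among 17 targets of SRF, a factor that also answers to actin filaments, 0 were called at 3 h, 4 were lower at 6 h and 16 were lower at 24 h, with 0 called higher at each time. Their medians were −0.041, −0.14 and −0.65. The smooth muscle genes *TAGLN* and *CNN1* stood at −3.27 and −2.64 and the myosin light chain *MYL9* at −1.57 at 24 h, and the exception was *ACTA2*, smooth muscle actin, at 0.11 (adjusted p = 0.490).

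**Figure D5:**
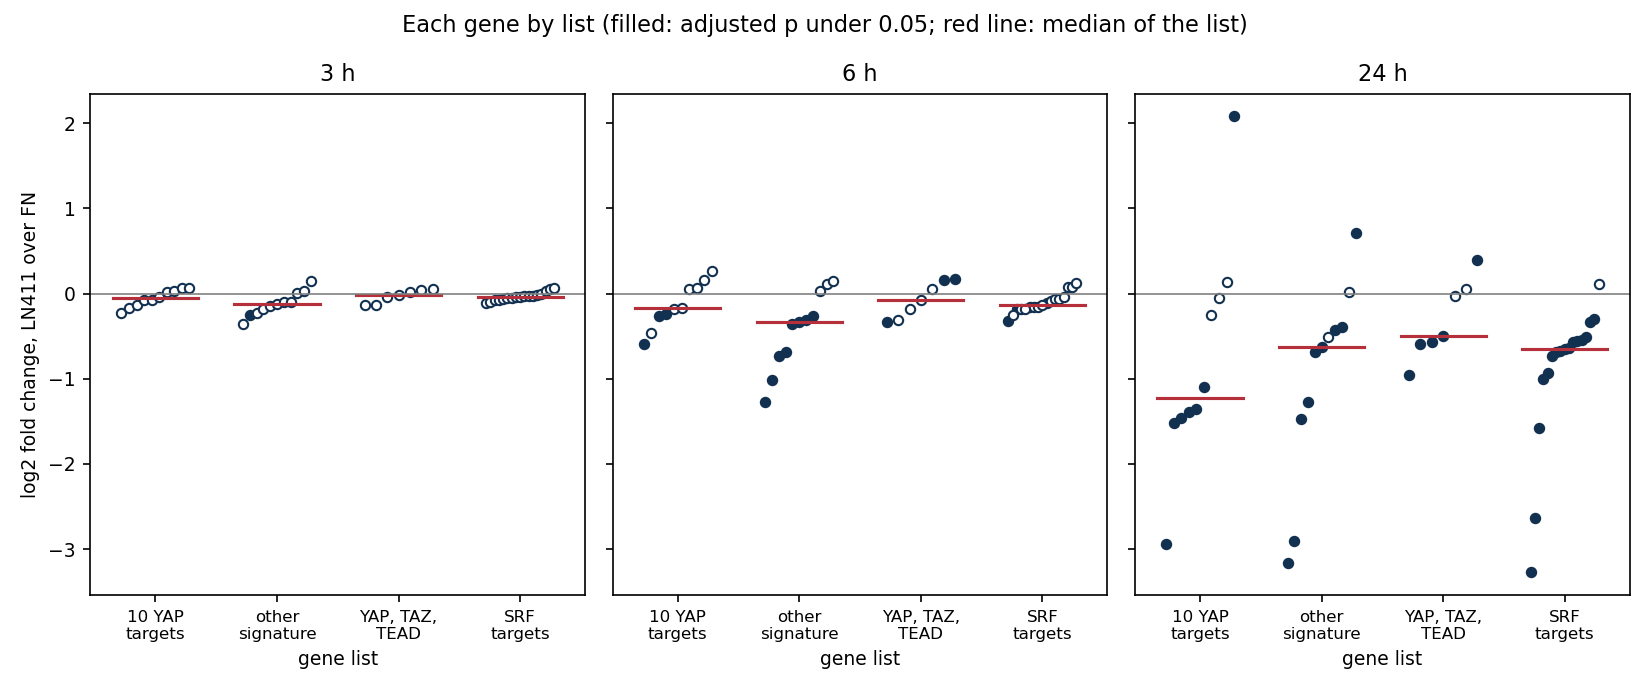
Log2 fold change of LN411 over FN for single genes of 4 lists at 3, 6 and 24 h, with filled points for an adjusted p-value under 0.05, open points for all others and a red line at the median of each list. At 24 h the medians are −1.23 for the 10 genes, −0.62 for the other signature genes, −0.49 for YAP, TAZ and the TEAD factors and −0.65 for the SRF targets, and *NT5E* is the highest point at 2.08.

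Of 38 ligands, partners and close relatives of the 10 proteins, 0 of 35 tested were called at 3 h, 4 of 33 were lower and 3 higher at 6 h, and 10 of 36 were lower and 7 higher at 24 h, with medians of 0.014, −0.022 and −0.059. Over all tested genes, 3.33% were lower and 4.90% higher at 6 h and 12.8% and 16.7% at 24 h, so that the share of higher partners at 24 h was near that of all genes. Beside *AXL*, its ligand *GAS6* (−0.017) and its relatives *TYRO3* (−0.034) and *MERTK* (0.0074) were not called at 24 h, and the ligand *PROS1* was higher at 0.60. Beside *CRIM1*, its ligand *BMP2* was lower at 6 h (−0.98) and 24 h (−1.88), while *BMP7* and *BMP4* were higher at 24 h, at 0.89 and 0.48. Beside *NUAK2*, the related kinase *NUAK1* was lower at −0.60 and the myosin phosphatase subunit *PPP1R12A* at −0.22 at 24 h, and *STK11* (0.11) was not called.

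For *NT5E*, the other steps of adenosine handling moved in different directions at 24 h. The adenosine receptors *ADORA2B* and *ADORA2A* were lower, at −0.63 and −0.83. *ADORA2A* had a mean normalized count of only 32.4 (SE 0.33, adjusted p = 0.0415). Adenosine deaminase (*ADA*) and the phosphatase *ALPL*, which can also make adenosine from AMP, were higher at 0.45 and 0.40. *ADORA1* and *ENTPD2*, also on this list, were not called. *ENTPD1*, the enzyme that supplies AMP to CD73, was lower at 6 h (−0.22) and not called at 24 h (−0.11). Beside *F3*, the inhibitor *TFPI2* was higher at 0.79 and the receptor *F2RL1* lower at −0.36. The inhibitor *TFPI* (−0.17) and the receptor *F2R* (−0.015) were not called. Beside *FJX1*, the cadherins *FAT1* and *FAT4* were lower at −0.22 and −0.32, and *DCHS1* (−0.097) was not called. Beside *ASAP1* and *DOCK5*, *ASAP3* was lower at −0.31, *ELMO1*, a partner of DOCK proteins, higher at 0.20, and *RAC1* lower at −0.13. The other listed partners of *ASAP1* (3) and of *DOCK5* (4) were not called at 24 h. Titin (*TTN*), which binds ANKRD1, was lower at 6 h (−0.37) and not called at 24 h (−0.057).

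The labelled cell type was checked against its markers. All 8 pancreatic progenitor markers were listed, with mean normalized counts of 135959 for *GP2*, 12933 for *PDX1* and 20672 for *SOX9* but 12.5 for *PTF1A*, and the pluripotency genes *POU5F1* and *NANOG* were not listed. Markers of other cells were also called at 24 h, when 16.7% of all tested genes were higher and 12.8% lower. At that time, 5 of 8 endocrine markers were higher and 0 lower, with a median of 1.29. Of the 8 progenitor markers, *PDX1* and *GP2* were higher, not far above the share of all genes. Of 9 listed mesenchyme markers, *COL1A2* (0.27) and *PDGFRA* (0.49) were higher and *VIM* (−0.91) and *PDGFRB* (−0.66) lower at 24 h, with 0 called at 3 and 6 h. These 2 in each direction are also not far above the shares of all genes, and no marker list was tested against those shares. *COL1A2* had a mean normalized count of 45110, while *DCN* was not listed at any time and *PRRX1* was not listed at 6 or 24 h. Of the duct markers, *KRT19* (−0.39) and *SPP1* (−1.35) were lower and *MUC1* (0.61) higher, and 2 of 4 listed acinar markers were higher. Endothelial markers had mean normalized counts of at most 75.0, with 0 called. The part of these shifts in the values of *NT5E*, *AXL* and the other members was not tested.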

How the data were processed

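RNA of 18 samples, 3 for each matrix and time, was measured. The labels number the samples as replicates and the study calls them biological replicates, without saying whether they came from separate differentiations. The p-values rest on the SEs of the authors' fit, which need not equal the spread between the samples of a single time. Per the labels and the study's methods, the authors prepared poly(A) libraries, aligned reads with STAR 2.7.2d to GRCh38 with GENCODE release 32, counted them per gene and compared LN411 with FN with DESeq2 1.34.0. The model formula is not given in the sources used here.

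The mean normalized count in the authors' deposited table is a signal averaged over all samples. The fold changes and SEs are log2 values from the authors' fit, the Wald statistic is a score deposited beside them, and the deposited p-value and adjusted p-value follow from it. These deposited columns are the authors' own comparison and the only values used here. Adjusted p-values were recomputed from the deposited statistics, with 0 calls that differed.

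Genes were called at an adjusted p-value under 0.05 over all genes that the authors' filter kept. Intervals are 95% normal intervals. Differences between times were divided by the root of the summed squared SEs, which treats times as independent. The named genes are the 10 members, genes of the lists and the 3 nearest patterns of 2 members. The members, lists and tests were chosen with earlier results of these data known. Positions and exon lengths are from GENCODE release 44 on GRCh38. Calls and differences were tested on simulated data, with normal errors drawn from the deposited SEs independently at each time. Such data cannot check the SEs themselves or batches shared between times. The alternatives tried were a threshold of 0.01, no filtering, other sets of genes adjusted over, a t distribution, a limit of 0.5 on the log2 fold change, centring on the median and removal of GC content and length trends over 25 bins. Python 3.11.15, numpy 2.4.6, pandas 2.3.3, scipy 1.17.1 and matplotlib 3.10.9 were used.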

Additional observations from a re-analysis of the deposited data

Results flagged for a closer look

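The effect of LN411 differed between times in 8 of the 10 genes by the test of the difference itself, with adjustment over every gene present at both times. Over all genes, the effect fell for 6.51% and rose for 6.24% from 6 to 24 h, and fell for 8.18% and rose for 8.85% from 3 to 24 h. From 6 to 24 h, the log2 fold change moved by −2.47 in *ANKRD1*, −1.28 in *AXL*, −1.23 in *CRIM1*, −1.26 in *FJX1*, −0.76 in *NUAK2* and −1.25 in *MYOF*, and by 1.82 in *NT5E* and 0.37 in *DOCK5*. From 3 to 24 h, it moved by −2.81 in *ANKRD1*, −1.38 in *AXL*, −1.32 in *CRIM1*, −1.16 in *FJX1*, −1.13 in *NUAK2* and −1.54 in *MYOF*, and by 2.06 in *NT5E* and 0.31 in *DOCK5*. Against a t distribution with 12 degrees of freedom, *NUAK2* from 6 to 24 h (adjusted p = 0.0774) and *DOCK5* from 3 to 24 h (adjusted p = 0.0562) did not pass. *F3* and *ASAP1* did not pass this test over either interval. Outlying samples could not be looked for, since values per sample were not used here.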

How the results depend on the processing

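Of the counts of genes called or changed, 68 stayed within 1.5 times their value over the alternatives and 4 moved. Counts at 3 h, of genes higher at 6 h and of changes from 3 to 6 h were 0 under every setting. For these a limit of 1.5 times says nothing. A drop of genes lower at 6 h from 3 to 2 with GC content and length trends removed (*DOCK5* lost) was counted as staying. Of those that moved, genes lower at 6 h numbered 1 against a t distribution with 12 degrees of freedom (*MYOF*). They also numbered 1 with a limit of 0.5 on the log2 fold change (*NUAK2*). Genes higher at 24 h numbered 2 with GC content and length trends removed, *DOCK5* being the addition, and genes whose effect rose from 3 to 24 h numbered 1 with the t distribution. For single genes, only centring and the removal of trends changed the log2 values, so that direction could change only there. Of the values of single genes, 350 kept their direction and their side of the threshold, 8 lost their call, 1 gained one and 1 reversed. The last was *DOCK5* at 6 h minus 3 h, −0.064 as reported and 0.018 with GC content and length trends removed, which did not pass either way. The causes were not tested. No paired analysis was possible because the table holds no values per sample, and leaving out single samples could not be run for the same reason.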
